A study of Mus musculus with 6 samples.

Results

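The amino acid transporters of mouse lung myofibroblasts and fibroblasts were followed as a list of 36 genes, out of 22911 genes with a named probe on the array. The list holds members of the solute carrier families SLC1, SLC3, SLC6, SLC7, SLC16, SLC36, SLC38 and SLC43. Each gene was found through the transcript its probes are designed to, and where a gene had several probes the one with the highest mean log2 signal over all arrays stood for it. The 36 genes had 54 probes, and 15 of the genes had more than 1.

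The study set 3 groups of male mice side by side, with 2 arrays each. Myofibroblasts were sorted as CD49e+ Sca1- Lin- cells from bleomycin-treated lung, where CD49e is the integrin chain Itga5 and Sca1 is Ly6a. Bleomycin is a drug used to bring on lung fibrosis in mice. Steady-state fibroblasts were sorted as CD140a+ Lin- cells from untreated lung, where CD140a is the receptor Pdgfra. Homogenates of untreated lung, which hold the RNA of all lung cells, were the third group. The design gives 2 sets of 50000 cells to each group, and 5.8 ng of total RNA was labelled per array. Treatment and sorting gate changed together between the sorted groups, so their effects cannot be told apart. Between myofibroblasts and homogenates, treatment and sorting changed together as well. The labels do not say whether the 2 samples of a group came from different animals, so each p-value reflects only how far these arrays vary, and part or all of that may be technical.

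Amino acid transporters move amino acids across the plasma membrane or out of lysosomes, and many of them exchange 1 amino acid for another. The light chains of the SLC7 family work only when joined to a heavy chain, Slc3a2 (also called CD98 or 4F2hc) or Slc3a1. The cationic transporters Slc7a1 and Slc7a2 carry arginine, lysine and ornithine by themselves, and the SLC1 and SLC38 families use the sodium gradient to take up glutamate, glutamine and small neutral amino acids. In fibroblasts, amino acid supply matters for collagen, a protein rich in glycine and proline. When amino acids run short, the kinase GCN2 and the transcription factor ATF4 raise the transcription of several transporters and of enzymes such as asparagine synthetase.

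Levels are given as relative signal, which is the probe's background-corrected intensity divided by the 75th percentile of its array. They compare the same probe between samples and not 1 gene with another. Differences are on the log2 scale with limma's standard error (SE), and a gene was called at a Benjamini-Hochberg adjusted p under 0.05 over all genes tested. For a test in a comparison, the scanner software had to mark the probe well above background on both arrays of 1 of its groups or of both. Above background on both arrays were 28 of the 36 members in myofibroblasts, 30 in fibroblasts and 34 in homogenates. The 28 members were above background on both arrays of all 3 groups. Slc7a3, a cationic transporter, and Slc38a3, a glutamine transporter, were above background on both arrays of no group and were not tested.

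The 75th percentile of intensity ran between 224 and 233 on the 4 arrays of sorted cells and was 282 and 270 for the homogenates. Replicates differed more than 2-fold in 7.84% of the genes above background in myofibroblasts, in 23.5% in fibroblasts and in 2.83% in homogenates. Among members above background this held for 3 of 28 between the myofibroblast arrays, 7 of 30 between the fibroblast arrays and 1 of 34 between the homogenate arrays. All 8 fibroblast and myofibroblast markers were above background on every array of both sorted groups, and on both homogenate arrays as well. Itga5 had 3.74 and 5.01 in myofibroblasts, against 0.316 and 0.228 in fibroblasts. Pdgfra had 9.66 and 10.2 in myofibroblasts, against 73.5 and 35.1 in fibroblasts. Ly6a had 3.69 and 4.28 in myofibroblasts, against 12.03 and 19.2 in fibroblasts, so the Sca1- cells carried a measured Ly6a signal. On the array slide the homogenates had a row of their own, so that row and sample type cannot be told apart in the comparisons with them.

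Between the sorted groups, 30 members were tested, of which 5 rose and 4 fell in myofibroblasts relative to fibroblasts. Of all 16008 genes tested in this comparison 17.2% were called (9.21% higher and 8.01% lower), and of the tested members 30.0%. The median difference of the tested members was -0.18, against -0.06 for all genes, and the median size of the difference was 0.83, against 0.66. With the scaling of the authors' deposited table the member counts were 5 higher and 7 lower. The members that rose were the cationic transporters Slc7a1 and Slc7a2, the light chains Slc7a5 and Slc7a7, and Slc38a10. Those that fell were the light chain Slc7a10, the glutamine transporter Slc38a5, the glutamate transporter Slc1a3 and Slc43a3. In such bulk samples, fewer cells of a type and less RNA per cell cannot be told apart. In the plot of relative signal by array, the myofibroblast and fibroblast arrays of these 9 genes stand apart.

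**Figure D1:**
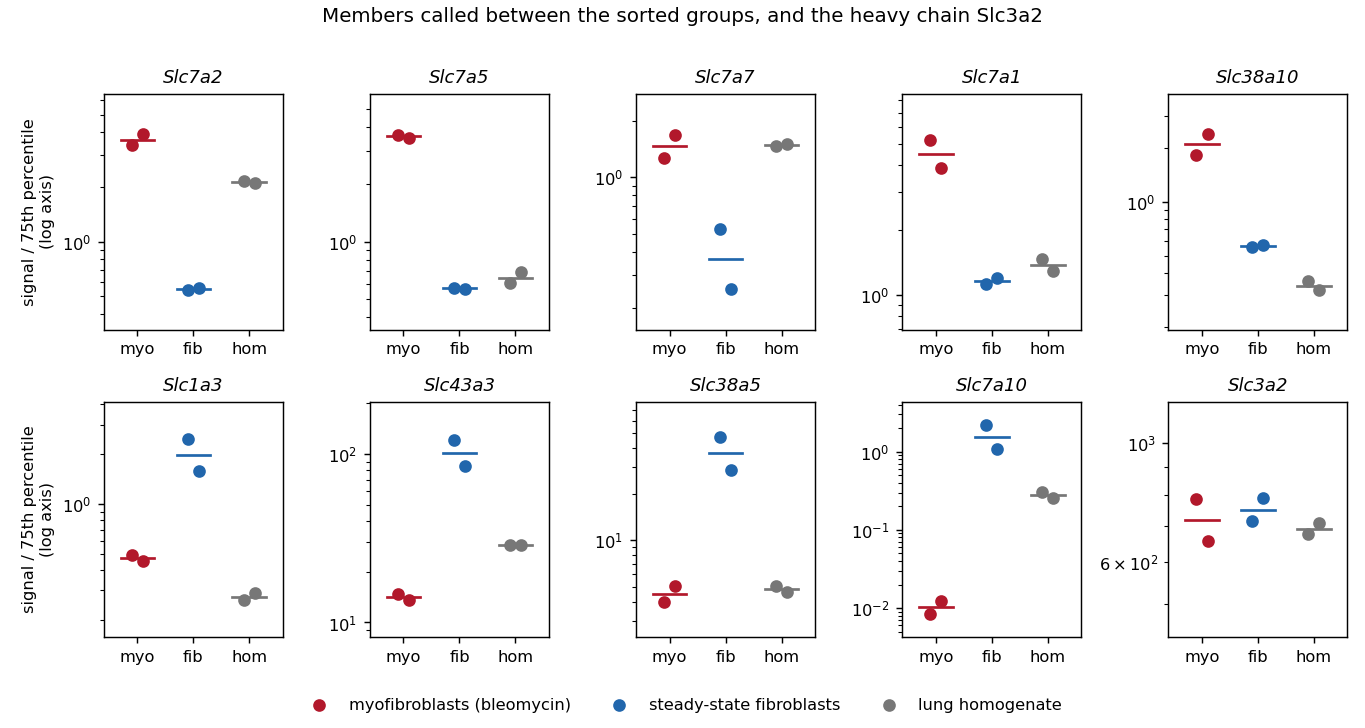
Relative signal (log axis, a range of its own in each panel) of the 9 members called between the sorted groups and of the heavy chain Slc3a2 on each of the 6 arrays; points are arrays and lines are geometric means of 2. Slc7a2, Slc7a5, Slc7a7, Slc7a1 and Slc38a10 are higher on both myofibroblast arrays than on both fibroblast arrays, Slc1a3, Slc43a3, Slc38a5 and Slc7a10 are lower, and Slc3a2 lies between 657 and 788 on all arrays.

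The cationic transporters were both higher in myofibroblasts. Slc7a2 (CAT2), which takes up arginine, lysine and ornithine, had a relative signal of 3.39 and 3.91 in myofibroblasts, 0.544 and 0.557 in fibroblasts, and 2.16 and 2.11 in homogenates. The myofibroblast arrays were the highest and the fibroblast arrays the lowest, with no overlap between groups. The difference between the sorted groups was 2.73 ± 0.24 (log2, SE; adjusted p = 0.0032), or 6.61-fold. Slc7a1 (CAT1), the widely expressed uptake route for the same amino acids, had 5.26 and 3.88 in myofibroblasts, 1.12 and 1.21 in fibroblasts, and 1.46 and 1.30 in homogenates. Only the myofibroblast arrays were high, and the fibroblast and homogenate arrays lay close together. Its difference between the sorted groups was 1.96 ± 0.27 (adjusted p = 0.0105), and without myofibroblast replicate 1 the adjusted p was 0.0547. Slc7a3, the third cationic transporter, had 0.00862 and 0.00888 in myofibroblasts, 0.0936 and 0.0182 in fibroblasts, and 0.0142 and 0.0242 in homogenates. Of these arrays only fibroblast replicate 1 was above background for it.

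Slc3a2, the heavy chain that brings Slc7a5, Slc7a6, Slc7a7, Slc7a8, Slc7a10 and Slc7a11 to the cell surface, had 785 and 657 in myofibroblasts, 714 and 788 in fibroblasts, and 676 and 709 in homogenates. The myofibroblast range overlapped that of each other group. Its difference between the sorted groups was -0.06, with a 95% confidence interval from -0.67 to 0.55 (adjusted p = 0.869). The second Slc3a2 probe gave a difference of 0.30 (adjusted p = 0.460). Slc3a1, the heavy chain that pairs with Slc7a9 in kidney and gut, had 0.186 and 0.347 in myofibroblasts, 0.348 and 0.161 in fibroblasts, and 0.180 and 0.301 in homogenates. Its 3 groups overlapped, and it was not called (0.10 ± 0.53).

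The light chains differed in opposite directions. Of the 7, 5 were tested between the sorted groups, of which 2 rose, 1 fell and 2 were not called. Slc7a5 (LAT1), the exchanger that imports leucine and other large neutral amino acids, had 3.62 and 3.53 in myofibroblasts, 0.569 and 0.567 in fibroblasts, and 0.604 and 0.692 in homogenates. The myofibroblast arrays were above all others. Myofibroblasts exceeded fibroblasts by 2.65 ± 0.24 (adjusted p = 0.0034), or 6.30-fold. Slc7a7 (y+LAT1), which exports cationic amino acids in exchange for neutral ones, had 1.27 and 1.68 in myofibroblasts, 0.530 and 0.253 in fibroblasts, and 1.46 and 1.50 in homogenates. Here the fibroblast arrays were the low ones, and the myofibroblast and homogenate arrays overlapped. The difference between the sorted groups was 1.999 ± 0.41 (adjusted p = 0.0301), and the adjusted p was 0.0872 and 0.140 without myofibroblast replicate 1 or 2, and 0.0818 without either homogenate array. With the array weights it was 0.0528, and 0.0699 with only the 4 arrays of the sorted groups.

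Slc7a10 (Asc-1), a carrier of small neutral amino acids such as glycine, alanine and serine, was the member with the largest difference. It had 0.00839 and 0.0125 in myofibroblasts, 2.19 and 1.08 in fibroblasts, and 0.305 and 0.260 in homogenates. On neither myofibroblast array was it above background, so the myofibroblast level is known only as a bound. It was at least 38.1-fold lower in myofibroblasts than in fibroblasts (adjusted p = 0.00132), where the bound sets the fibroblast mean against the lowest signal well above background on the myofibroblast arrays. Here and for each bound below, the adjusted p belongs to the fitted difference, which uses signals below background. The bound itself was not tested.

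The remaining light chains were not called between the sorted groups or not tested. Slc7a6 (y+LAT2), which works like Slc7a7, had 1.997 and 1.67 in myofibroblasts, 1.91 and 0.795 in fibroblasts, and 0.289 and 0.250 in homogenates. Both sorted groups were above the homogenates, and 1 fibroblast array lay among the myofibroblast values. Its difference between the sorted groups was 0.57 ± 0.45 (adjusted p = 0.404), but the second Slc7a6 probe gave 1.37 (adjusted p = 0.0455), so its probes disagree. Slc7a8 (LAT2), a second carrier of large neutral amino acids, had 0.784 and 0.642 in myofibroblasts, 1.34 and 1.13 in fibroblasts, and 2.14 and 1.99 in homogenates. Its difference between the sorted groups was -0.80 ± 0.26 (adjusted p = 0.0871). Slc7a11 (xCT), which brings in cystine in exchange for glutamate, had 0.0374 and 0.0518 in myofibroblasts, 0.00797 and 0.00937 in fibroblasts, and 0.0781 and 0.0435 in homogenates. It was above background on 1 of 2 myofibroblast arrays and on no fibroblast array, and was not tested between them. Slc7a9, the partner of Slc3a1, was above background on 1 array of each sorted group and was not tested either.

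Among the 9 sodium-coupled neutral transporters of the SLC38 family, 7 were tested between the sorted groups, of which 1 rose, 1 fell and 5 were not called. Slc38a5 (SNAT5), a glutamine, histidine and serine carrier, had 3.98 and 5.06 in myofibroblasts, 46.7 and 28.7 in fibroblasts, and 5.06 and 4.64 in homogenates. The fibroblast arrays were the high ones and the other groups overlapped. Between the sorted groups it differed by -3.03 ± 0.33 (adjusted p = 0.0055). Slc38a10, a less studied family member, had 1.83 and 2.39 in myofibroblasts, 0.557 and 0.575 in fibroblasts, and 0.360 and 0.320 in homogenates. The myofibroblast arrays were the highest and the homogenate arrays the lowest. The difference between the sorted groups was 1.88 ± 0.26 (adjusted p = 0.0107), and without myofibroblast replicate 2 the adjusted p was 0.0618. Its second probe gave 1.70 and was not called (adjusted p = 0.0535). Its last probe was called higher (adjusted p = 0.0480) but was above background on no fibroblast array, so the size of that difference is only a bound.

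Slc38a1 (SNAT1), a glutamine transporter, had 0.0355 and 0.0825 in myofibroblasts, 0.0257 and 0.00937 in fibroblasts, and 1.36 and 1.31 in homogenates. It was above background on 1 of 2 myofibroblast arrays and on no fibroblast array, and was not tested between them. Slc38a2 (SNAT2), whose transcript is known to rise when amino acids are short, had a difference of -0.02 between the sorted groups with a 95% confidence interval from -0.63 to 0.58. The lysosomal arginine sensor Slc38a9 had -1.27 ± 0.52 (adjusted p = 0.141). Slc38a7 had the widest spread between replicates of any member above background in myofibroblasts, at 4.42-fold, and its difference was -0.77 ± 0.71.

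Among the 5 glutamate and neutral amino acid transporters of the SLC1 family, 4 were tested between the sorted groups, of which 1 fell and 3 were not called. Slc1a3 (GLAST), a glutamate and aspartate transporter, had 0.490 and 0.453 in myofibroblasts, 2.47 and 1.57 in fibroblasts, and 0.262 and 0.289 in homogenates. The fibroblast arrays were the highest and the homogenate arrays the lowest. The difference between the sorted groups was -2.06 ± 0.30 (adjusted p = 0.0129), and without myofibroblast replicate 1 or 2 the adjusted p was 0.0612 and 0.0737. Slc1a5 (ASCT2), a major route of glutamine entry, had -0.86 ± 0.41 (adjusted p = 0.191). Slc1a4 (ASCT1), which carries alanine, serine and cysteine, had -0.20 ± 0.24 (adjusted p = 0.580).

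In the SLC43 family 1 of 3 members fell and 2 were not called. Slc43a3, known as a purine nucleobase transporter although its relatives carry amino acids, had 14.8 and 13.7 in myofibroblasts, 122 and 85.1 in fibroblasts, and 29.0 and 28.8 in homogenates. The 3 groups did not overlap, with fibroblasts highest. Between the sorted groups it differed by -2.84 ± 0.28 (adjusted p = 0.0043). Slc43a1 (LAT3), which carries leucine and other branched-chain amino acids, had 0.263 and 0.582 in myofibroblasts, 1.04 and 1.23 in fibroblasts, and 0.185 and 0.134 in homogenates. The groups did not overlap, but the difference between the sorted groups, -1.53 ± 0.44, was not called (adjusted p = 0.0676). Its second probe gave 0.12 (adjusted p = 0.881). Against homogenates the main probe was not called in myofibroblasts (1.31, adjusted p = 0.0797), while the second was called higher (adjusted p = 0.0112) with no homogenate array above background.

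None of the 3 tested SLC6 members (Slc6a6 for taurine, Slc6a9 for glycine, Slc6a20a for proline), the 3 proton-coupled SLC36 members or the aromatic amino acid transporter Slc16a10 was called between the sorted groups. The differences of the SLC6 members lay between -0.39 and 0.48. At an unadjusted p under 0.05, none of these 3 SLC6 genes and 1 of the 3 SLC36 genes passed. That gene was Slc36a2, a proton-coupled glycine and proline transporter. It had 12.4 and 18.1 in myofibroblasts, 44.1 and 30.1 in fibroblasts, and 5.24 and 6.02 in homogenates, and its difference between the sorted groups was -1.28 ± 0.33 (adjusted p = 0.0526). Over all 30 tested members, 13 passed an unadjusted p under 0.05. The share of all genes that passed it was not computed, so this count has nothing to be set against.

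**Figure D2:**
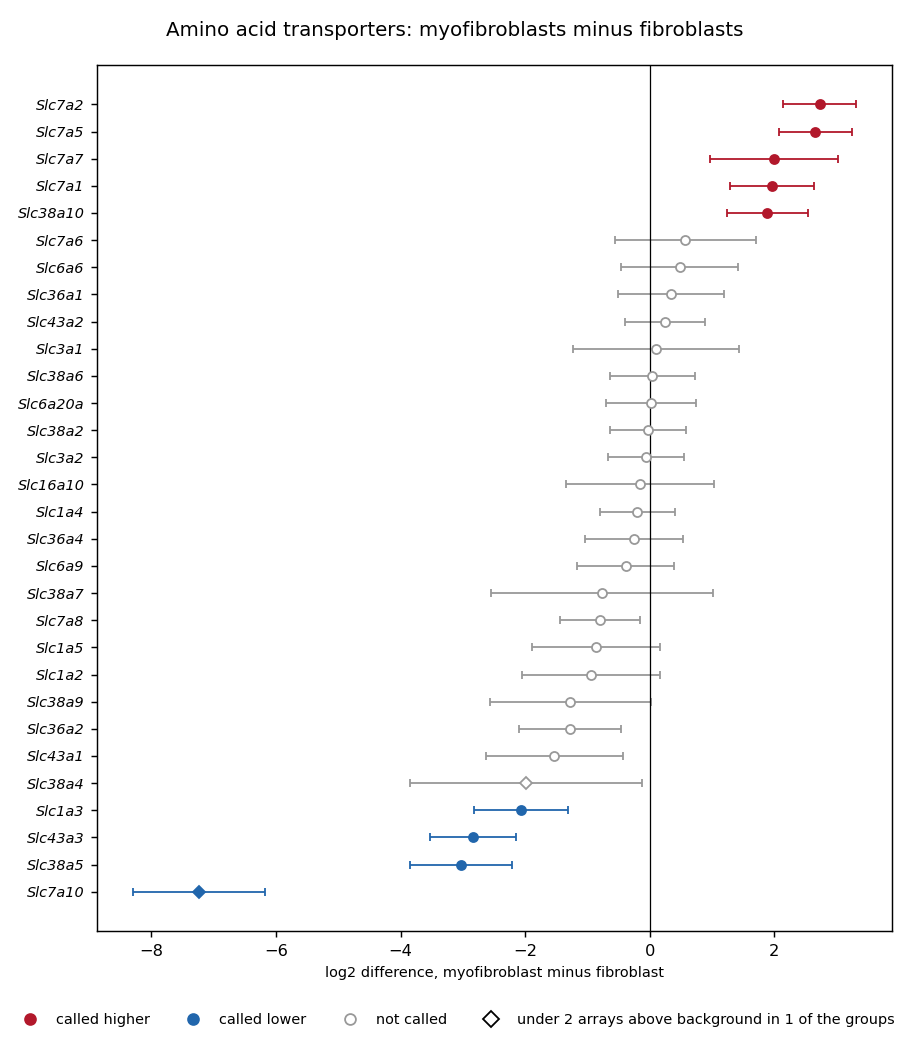
Log2 difference, myofibroblast minus fibroblast, with limma's 95% confidence interval for the 30 tested members; filled points are called, open points are not, and diamonds have under 2 arrays above background in 1 of the groups. The 5 members called higher lie between 1.88 and 2.73 and 3 of the members called lower between -3.03 and -2.06; Slc7a10 lies far to the left, where its fitted value depends on signals below background.

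Genes that mark other lung cells also differed between the sorted groups, and their part in the transporter differences was not tested. Of 8 macrophage markers, 4 were above background on both arrays in myofibroblasts and 3 in fibroblasts, and 1 rose. That one was Marco, with 0.458 and 1.84 in myofibroblasts, 0.111 and 0.107 in fibroblasts, and 67.9 and 71.4 in homogenates. Adgre1, Mrc1 and Itgax were above background on neither myofibroblast array. The summed signal of the 8 was 21.5 and 22.2 in myofibroblasts, 19.8 and 25.3 in fibroblasts, and 137 and 141 in homogenates. In both sorted groups most of this sum was Csf1r, with 20.1 and 19.5 in myofibroblasts and 18.6 and 24.4 in fibroblasts. The Csf1r signal was similar in homogenates, at 20.9 and 21.9. Of 5 airway markers 1 fell, the club cell gene Scgb1a1, with 10.4 and 15.9 in myofibroblasts, 118 and 69.0 in fibroblasts, and 614 and 602 in homogenates. Against homogenates Scgb1a1 was lower in fibroblasts (-2.75, adjusted p = 0.0058). Whether it has a bearing on the 4 transporters that fell was not tested. The summed signal of the 7 alveolar epithelial markers was 4.57 and 4.96 in myofibroblasts, 7.12 and 6.19 in fibroblasts, and 253 and 254 in homogenates, and that of the 6 endothelial markers was 0.126 and 0.221 in myofibroblasts, 1.52 and 1.28 in fibroblasts, and 53.8 and 49.9 in homogenates. In each of these 2 lists 1 marker fell, Sftpc and Tek. Tek had 0.00831 and 0.112 in myofibroblasts, 1.37 and 1.07 in fibroblasts, and 4.77 and 4.07 in homogenates. It made up most of the endothelial sum in fibroblasts, and the other endothelial markers had 0.0741 or less on each sorted array. Of the lymphocyte, neutrophil and mesothelial markers, only Cd3e, Csf3r, Mpo and Wt1 were tested between the sorted groups, and none was called.

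Beside the members, 4 lists of genes around amino acid transport were read from the same fit. The first held the amino acid stress response, ATF4 and 17 genes linked to it. Of its 18 genes, all tested between the sorted groups, 4 rose and 2 fell in myofibroblasts. Asns, asparagine synthetase, had 2.27 and 2.19 in myofibroblasts, 0.214 and 0.154 in fibroblasts, and 0.765 and 0.798 in homogenates. The myofibroblast arrays were the highest and the fibroblast arrays the lowest, and the difference was 3.62 ± 0.27 (adjusted p = 0.0024). Chac1, an enzyme that breaks down glutathione, was above background on no fibroblast array and was at least 3.60-fold higher in myofibroblasts (adjusted p = 0.0018).

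Nupr1, a stress-induced nuclear protein, and Eif4ebp1, a brake on translation, rose by 1.32 ± 0.31 (adjusted p = 0.0402) and 1.55 ± 0.39 (adjusted p = 0.0483), and without either myofibroblast or either homogenate array neither was called (adjusted p up to 0.159 for Nupr1 and 0.200 for Eif4ebp1). Both calls also ended with quantile normalization, with the authors' deposited values and with no filter on dim probes. The lipoprotein receptor Vldlr fell by 2.40 ± 0.35 (adjusted p = 0.0124), and without myofibroblast replicate 1 the adjusted p was 0.0624. Gpt2, an alanine aminotransferase that is also in the next list, fell by 1.29 ± 0.27 (adjusted p = 0.0319), and with the mean over its probes the adjusted p was 0.363. The Gpt2 call also ended with only the 4 arrays compared, with array weights, with the replicate block, and without 1 array (adjusted p up to 0.145). Atf4 itself had 119 and 137 in myofibroblasts, 235 and 136 in fibroblasts, and 94.8 and 83.3 in homogenates. The sorted groups overlapped, and the difference of -0.48 ± 0.34 was not called (adjusted p = 0.344). Trib3 (0.36 ± 0.97) and Ddit3 (0.32 ± 0.78) were not called either, with replicates that differed widely. The median difference over the list was -0.23, against -0.06 for all genes, and its median size 1.16, against 0.66.

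The second list held 21 enzymes of glutamine, glutamate, arginine and cysteine metabolism, of which 20 were tested, 4 rose and 2 fell. Bcat1, the cytosolic enzyme that starts the breakdown of leucine, isoleucine and valine, had 1.61 and 2.04 in myofibroblasts, 0.116 and 0.172 in fibroblasts, and 0.0172 and 0.0152 in homogenates. The groups did not overlap, and the difference between the sorted groups was 3.68 ± 0.31 (adjusted p = 0.0030). The glutathione synthetase gene Gss rose by 1.99 ± 0.36 (adjusted p = 0.0220), and the arginine-making enzyme Ass1 by 1.70 ± 0.28 (adjusted p = 0.0179). Without 1 array their adjusted p reached 0.0790 and 0.0869. Cbs, which makes cystathionine from homocysteine, was above background on 1 of 2 myofibroblast arrays and at least 11.1-fold lower in myofibroblasts (adjusted p = 0.0232, up to 0.0990 without 1 array). Got2, the mitochondrial aspartate aminotransferase, had 2.84 and 2.93 in myofibroblasts, 0.669 and 1.39 in fibroblasts, and 1.45 on each homogenate array, and rose by 1.58 ± 0.39 (adjusted p = 0.0480). That call ended with quantile normalization, the authors' deposited values, no filter on dim probes, only the 4 arrays, array weights, the replicate block, and without 1 array (adjusted p up to 0.176).

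The third list held 26 other amino acid transporter genes, of which 12 were tested, 1 rose and 1 fell. Slc1a6, a glutamate transporter best known from the cerebellum, rose by 1.71 ± 0.33 (adjusted p = 0.0253, and up to 0.102 without 1 array). Slc6a15, a carrier of branched-chain amino acids and proline, was at least 1.72-fold lower in myofibroblasts, where it was above background on neither array (adjusted p = 0.0074, and 0.200 with normexp background correction). The fourth list held 23 genes of amino acid sensing by the kinase complex mTORC1, of which 20 were tested, none rose and 1 fell. That gene was Sesn1, a relative of the leucine sensor Sesn2, which fell by 1.37 ± 0.34 (adjusted p = 0.0488, and up to 0.176 without 1 array). In that list 7 genes passed an unadjusted p under 0.05, for which no share of all genes was computed. The shares called were 33.3% in the stress response list, 30.0% in the metabolism list, 16.7% among the other transporters and 5.0% in the sensing list, against 17.2% of all genes.

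**Figure D3:**
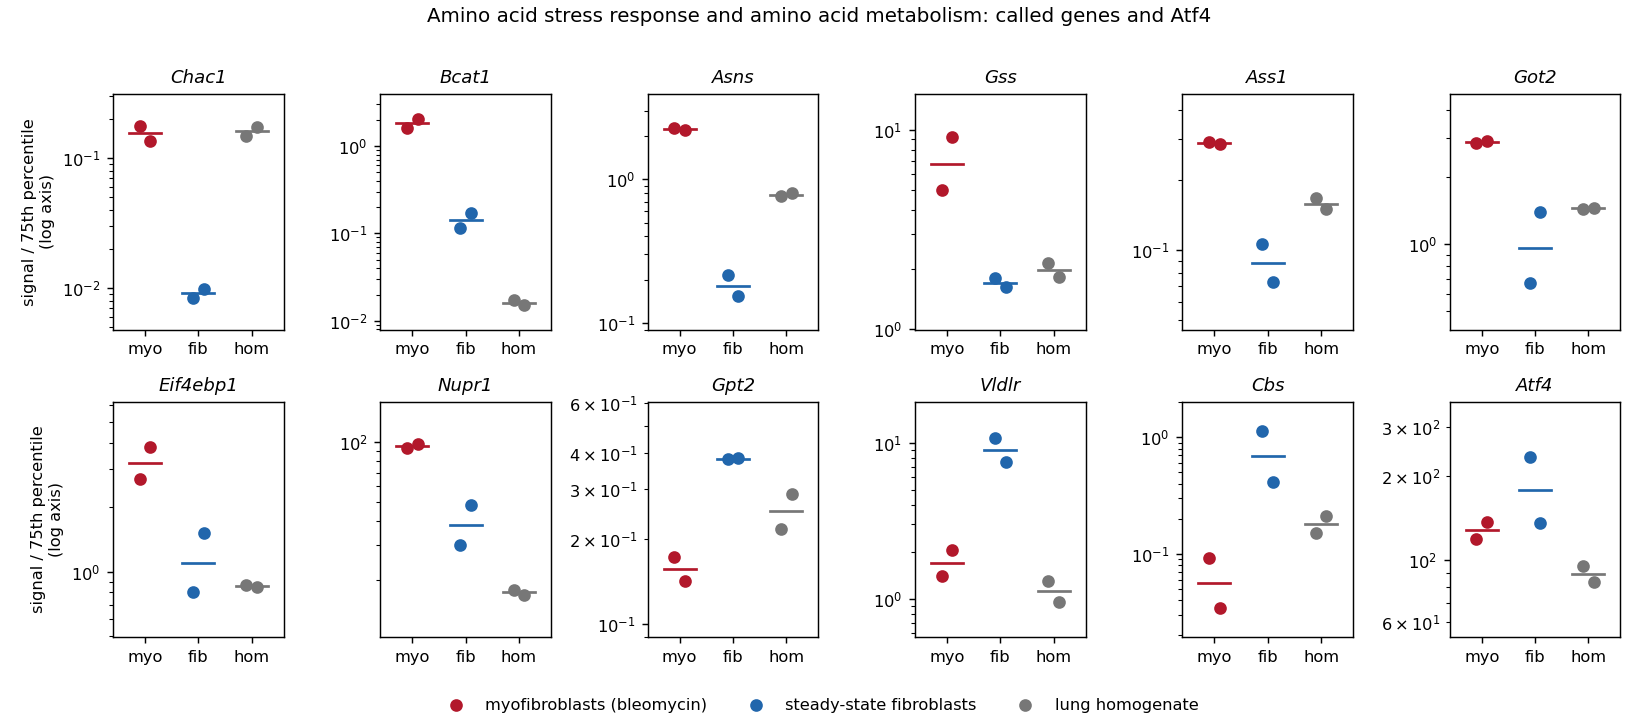
Relative signal (log axis, a range of its own in each panel) of the genes of the stress response and metabolism lists called between the sorted groups, and of Atf4, on each of the 6 arrays; lines are geometric means of 2. Chac1, Bcat1, Asns, Gss, Ass1, Got2, Eif4ebp1 and Nupr1 are higher on both myofibroblast arrays than on both fibroblast arrays, Gpt2, Vldlr and Cbs are lower, and the Atf4 values of the sorted groups overlap.

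ATF4 is known to bind with C/EBP partners to a composite site, whose core was searched as TGATGNAA on both strands in RefSeq promoters of build GRCm38.p6, each reaching from 250 bases before to 50 after a gene's start. The share of the 32841 listed promoters that held it was 3.97%. That share is per promoter and the counts that follow are per gene, and a gene with several promoters has more chances to match. Of the 36 members, 27 had a listed promoter, 39 promoters in all, and 3 members had a match: Slc7a7, which rose between the sorted groups, Slc7a11, which was not tested there, and Slc1a4, which was not called. Of the 5 members that rose, 3 had a promoter and 1 of these a match, and 3 of those that fell had a promoter and none a match. In the stress response list 6 of the 16 genes with a promoter had a match, Asns, Trib3, Chac1, Atf3, Nupr1 and Vldlr. That list was made of genes linked to ATF4, so its matches are no separate result. A match is a description of letters and does not show a bound site. For each of the 3 members with a match, 1 promoter is shown with its matches in capitals. The promoter of Slc7a10, the member with the largest difference, is shown as an example without a match. The Slc7a7 window lies at chr14:54417895-54418194, that of Slc7a11 at chr3:50443564-50443863 and that of Slc1a4 at chr11:20332664-20332963, all on the minus strand, and that of Slc7a10 at chr7:35186135-35186434 on the plus strand.
Slc7a7: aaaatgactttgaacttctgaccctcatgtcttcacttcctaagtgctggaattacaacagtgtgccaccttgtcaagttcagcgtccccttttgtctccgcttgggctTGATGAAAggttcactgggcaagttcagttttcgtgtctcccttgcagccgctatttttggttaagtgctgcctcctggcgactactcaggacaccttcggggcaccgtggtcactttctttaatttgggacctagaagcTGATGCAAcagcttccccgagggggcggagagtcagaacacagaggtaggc
Slc7a11: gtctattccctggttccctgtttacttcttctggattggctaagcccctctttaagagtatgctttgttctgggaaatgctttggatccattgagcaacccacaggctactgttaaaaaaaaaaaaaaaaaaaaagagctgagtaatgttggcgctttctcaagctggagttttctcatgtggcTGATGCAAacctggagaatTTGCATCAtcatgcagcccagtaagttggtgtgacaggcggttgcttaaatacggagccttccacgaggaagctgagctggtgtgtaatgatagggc
Slc1a4: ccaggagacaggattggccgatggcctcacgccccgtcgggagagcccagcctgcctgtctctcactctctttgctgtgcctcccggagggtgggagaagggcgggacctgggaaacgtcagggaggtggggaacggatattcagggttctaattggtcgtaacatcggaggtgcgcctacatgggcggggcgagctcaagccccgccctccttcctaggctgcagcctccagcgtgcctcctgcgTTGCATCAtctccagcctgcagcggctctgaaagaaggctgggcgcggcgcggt
Slc7a10: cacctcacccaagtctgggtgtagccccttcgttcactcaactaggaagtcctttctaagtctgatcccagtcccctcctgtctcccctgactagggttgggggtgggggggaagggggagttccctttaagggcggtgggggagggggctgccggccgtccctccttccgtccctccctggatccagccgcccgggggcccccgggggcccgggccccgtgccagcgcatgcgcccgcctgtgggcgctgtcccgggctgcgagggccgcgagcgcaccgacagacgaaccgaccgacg
The 2 matches of Slc7a7 begin 141 bases and 1 base upstream of its first listed start, and Slc7a7 has 5 listed starts. The window of its second start overlaps the first and holds 1 of the same 2 sites, the one 1 base upstream of the first start. It lies 243 bases upstream of the second start. The matches of Slc7a11 begin 66 and 47 bases upstream, on opposite strands, and that of Slc1a4 begins 4 bases upstream.

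Against the homogenates, 34 members were tested in each sorted group. In myofibroblasts 5 rose and 6 fell relative to homogenates, 32.4% of those tested, against 26.9% of all 17165 genes tested (11.9% higher and 15.0% lower). With median scaling the counts were 10 higher and 3 lower, and with that of the authors' deposited values 4 and 8. Without either homogenate array they were 2 and 2. In fibroblasts 8 rose and 5 fell relative to homogenates, 38.2% of those tested, against 19.9% of all 17065 genes (8.09% higher and 11.8% lower). With median scaling these counts were 9 and 3, and without homogenate replicate 1 or 2 they were 4 and 2, or 3 and 2. Both comparisons share the homogenate arrays, and each is shared with the comparison of the sorted groups.

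The 5 members higher in myofibroblasts than in homogenates were Slc7a6, Slc38a10, Slc7a5, Slc7a1 and Slc36a2. Slc7a6 differed by 2.77 ± 0.45 (adjusted p = 0.0098), and the adjusted p was up to 0.0726 without 1 array. Slc38a10 differed by 2.62 ± 0.26 (adjusted p = 0.0018), although neither of its other probes was called. The second gave 1.29 (adjusted p = 0.0834), and the other was above background on neither homogenate array (adjusted p = 0.0972). Slc7a5 differed by 2.47 ± 0.24 (adjusted p = 0.0015) and Slc7a1 by 1.71 ± 0.27 (adjusted p = 0.0086, up to 0.0881 without 1 array). Slc36a2 differed by 1.41 ± 0.33 (adjusted p = 0.0295), a call that ended with quantile normalization, with the authors' table, with the replicate block, and without any myofibroblast or homogenate array (adjusted p up to 0.177). Slc7a2, the other cationic transporter, differed from homogenates by 0.77 ± 0.24 and was not called (adjusted p = 0.0633).

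The 6 members lower in myofibroblasts than in homogenates were Slc7a10, Slc38a1, Slc7a8, Slc1a1, Slc38a6 and Slc43a3. Slc7a10 was at least 6.97-fold lower (adjusted p = 0.0012), and with normexp background correction the adjusted p was 0.0721. Slc38a1 was at least 23.2-fold lower (adjusted p = 0.0047). Slc7a8 differed by -1.54 ± 0.26 (adjusted p = 0.0102, up to 0.0977 without 1 array). Slc1a1, a glutamate transporter that also takes up cysteine, was at least 1.70-fold lower by its main probe, which was above background on neither myofibroblast array (adjusted p = 0.0234, up to 0.160 without 1 array). Its second probe was above background on 1 of 2 myofibroblast arrays. Slc38a6 differed by -1.17 ± 0.27 (adjusted p = 0.0303, up to 0.217 without 1 array) and Slc43a3 by -1.02 ± 0.28 (adjusted p = 0.0457, up to 0.230 without 1 array). Both were also not called with the replicate block, as was Slc36a2. A further Slc38a6 probe gave -0.70 and was not called (adjusted p = 0.432).

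The 8 members higher in fibroblasts than in homogenates covered several families. Slc38a5 differed by 2.92 ± 0.33 (adjusted p = 0.0031), Slc43a1 by 2.85 ± 0.44 (adjusted p = 0.0091), Slc1a3 by 2.84 ± 0.30 (adjusted p = 0.0026) and Slc36a2 by 2.70 ± 0.33 (adjusted p = 0.0041). These were glutamine, branched-chain amino acid, glutamate and glycine or proline carriers. Slc7a10 (2.45), Slc7a6 (2.20), Slc1a5 (1.96) and Slc43a3 (1.82) were the other 4, and without either homogenate array none of these 4 was called (adjusted p without 1 array up to 0.0958, 0.143, 0.159 and 0.0820). The Slc43a1 call ended without homogenate replicate 2 (adjusted p = 0.0728). The second Slc7a6 probe gave 0.81 and was not called (adjusted p = 0.161).

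Lower in fibroblasts than in homogenates were 5 members. Slc38a1 was at least 31.1-fold lower (adjusted p = 0.0018), with both its other probes above background on no fibroblast array as well. Slc7a11 was at least 1.36-fold lower (adjusted p = 0.0059), and with normexp background correction the adjusted p was 0.282. Slc7a7 differed by -2.02 ± 0.41 (adjusted p = 0.0229) and Slc7a2 by -1.96 ± 0.24 (adjusted p = 0.0038), and without 1 homogenate array the adjusted p was up to 0.134 and 0.0510. The Slc7a7 call also ended with median scaling. Slc38a6 differed by -1.21 ± 0.27 (adjusted p = 0.0328). That call ended with median scaling, with the mean over its probes (-0.53, adjusted p = 0.350), with only the 4 arrays compared, with array weights, with the replicate block, and without 1 array. Its other 2 probes were not called and went opposite ways (0.42, adjusted p = 0.687, and -0.79, adjusted p = 0.202). The second probe of Slc1a1 was called lower in fibroblasts (adjusted p = 0.0118) where the main probe was not (-0.56, adjusted p = 0.295). It was above background on no fibroblast array, so the size of its difference is only a bound.

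**Figure D4:**
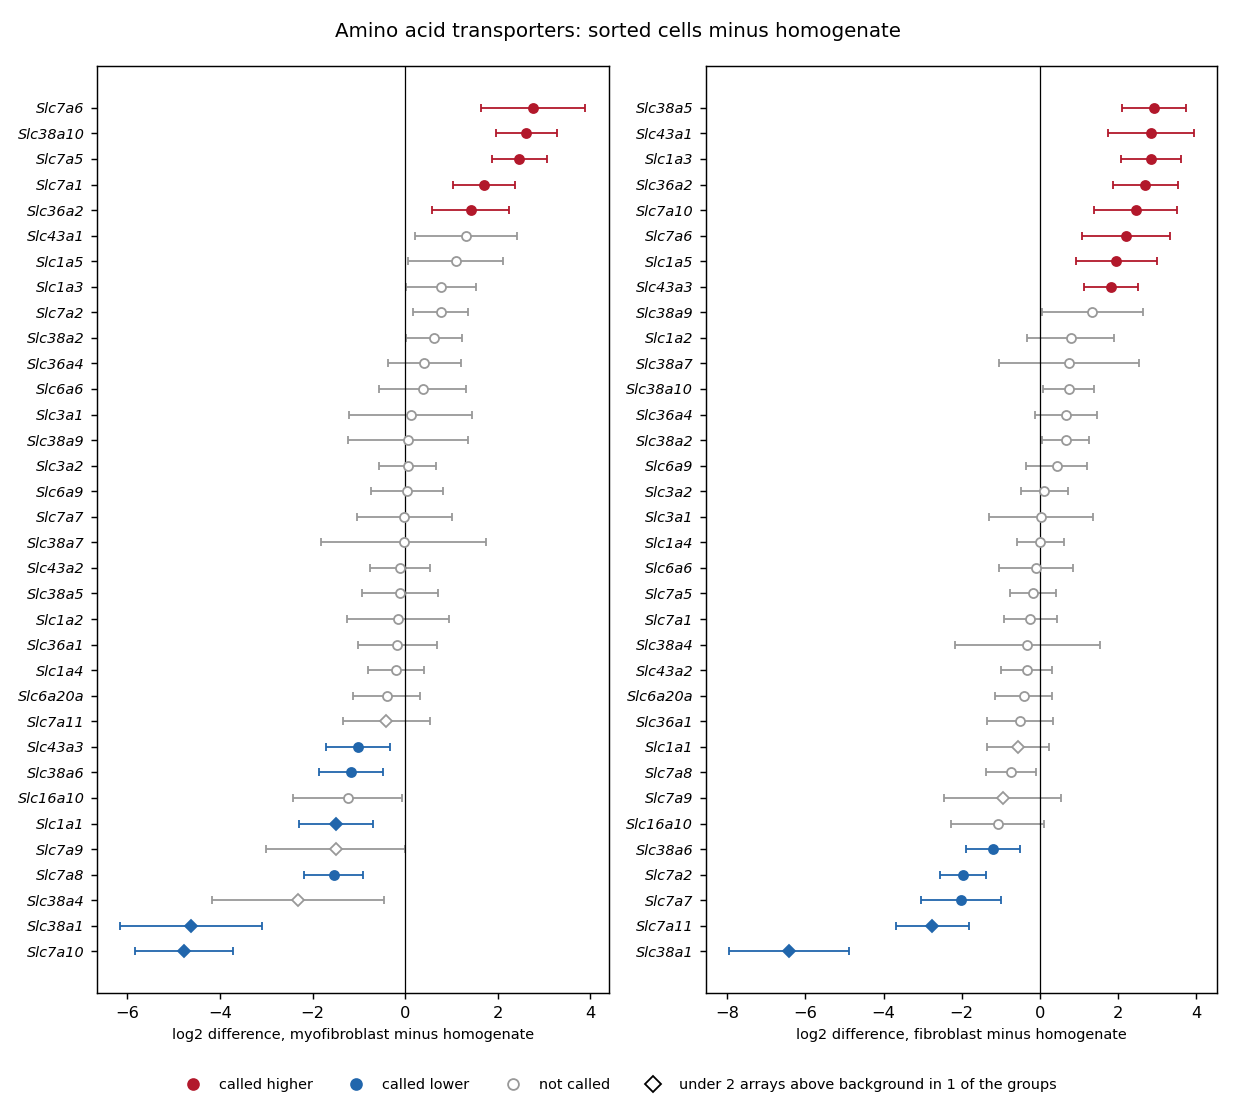
Log2 difference with limma's 95% confidence interval of the 34 tested members, myofibroblast minus homogenate (left) and fibroblast minus homogenate (right), each in its own order; filled points are called and diamonds have under 2 arrays above background in 1 of the groups. Slc7a6, Slc38a10 and Slc7a5 lead in myofibroblasts, Slc38a5, Slc43a1 and Slc1a3 lead in fibroblasts, and Slc38a1 is among the 2 lowest members in both.

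By group mean, 7 of the 34 tested members were highest in myofibroblasts, 15 in fibroblasts and 12 in homogenates. This order describes the means and was not tested, and it was not computed for all genes. It also counts members with close means, such as Slc1a4 with 312 in myofibroblasts, 358 in fibroblasts and 356 in homogenates. In no comparison were the heavy chains Slc3a2 and Slc3a1, the SLC6 members, Slc1a2, Slc1a4, Slc16a10, Slc36a1, Slc36a4, Slc38a2, Slc38a4, Slc38a7, Slc38a9, Slc43a2 or Slc7a9 called. Slc38a4, a neutral amino acid transporter known from liver, had the widest intervals among these together with Slc38a7, with a fitted difference of -1.99 between the sorted groups (adjusted p = 0.119) and above background on 1 of 2 myofibroblast arrays.

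The surrounding lists were read against homogenates as well. Of the 18 stress response genes 4 rose in myofibroblasts, with Nupr1 (2.46 ± 0.31, adjusted p = 0.0037), Eif4ebp1 (1.91 ± 0.39, adjusted p = 0.0189) and Asns (1.52 ± 0.27, adjusted p = 0.0127) ahead, and in fibroblasts 2 rose and 2 fell. Asns fell in fibroblasts by 2.10 ± 0.27 (adjusted p = 0.0048), and Chac1 was at least 3.73-fold lower there (adjusted p = 0.0006). Without 1 array the Eif4ebp1 and Asns calls against homogenates ended, with adjusted p up to 0.116 and 0.106 in myofibroblasts and 0.0549 for Asns in fibroblasts. Of the metabolism list 4 rose and 2 fell in myofibroblasts and 2 rose and 2 fell in fibroblasts. Bcat1 was above background on no homogenate array and was at least 46.5-fold higher in myofibroblasts (adjusted p = 0.0002) and at least 3.63-fold higher in fibroblasts (adjusted p = 0.0019, and 0.0559 with the mean over its probes). Of the other transporters, 18 were tested in each sorted group, with 2 higher and 5 lower in myofibroblasts and none higher and 3 lower in fibroblasts. Slc6a14, a broad neutral and cationic amino acid transporter, was above background on no sorted array and at least 5.86-fold lower in myofibroblasts and 5.52-fold lower in fibroblasts (adjusted p = 0.0003 in both). In the mTORC1 list 1 of 20 tested genes, Sesn3, rose in myofibroblasts (1.09 ± 0.28, adjusted p = 0.0389, up to 0.231 without 1 array), and limma called none in fibroblasts, where 3 passed an unadjusted p under 0.05. In myofibroblasts the shares called were 22.2% of the stress response list, 30.0% of the metabolism list, 38.9% of the other transporters and 5.0% of the mTORC1 list, against 26.9% of all genes tested. In fibroblasts they were 22.2%, 19.0%, 16.7% and 0% in the same order, against 19.9% of all genes tested. No share of all genes was computed at the unadjusted p.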

How the data were processed

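The 6 samples were each hybridised to a one-colour Agilent array, and the labels give their groups. Spot intensity was deposited as written by Agilent Feature Extraction 12.0.3.1, with local background and a spatial trend removed but arrays not scaled to each other, per the file headers. The authors' deposited table of intensity values was, for each array, the processed signal times 1 constant for 99.6% of probes on each array (within 1%). Column medians of the table were 153 and 141 (myofibroblasts), 206 and 233 (fibroblasts) and 283 on each homogenate array, and how it was scaled is not given in the sources used.

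The values analysed were log2 of the processed signal minus log2 of the array's 75th percentile. Outlier spots were left out and spots of a probe averaged. Of 56605 probes 32994 were named through RefSeq. The members and lists were chosen with earlier results of these data known. limma 3.58.1 in R 4.3.3 fitted the 3 groups on all 6 arrays (3 residual degrees of freedom, 5.57 with the prior, two-sided), with Benjamini-Hochberg adjustment over all genes tested. Values of a gene's other probes come from the same fit run on all named probes and adjusted over those tested. A difference against a probe not well above background is a bound, the bright group's mean over the dim group's mean of the lowest signal well above background or its own, whichever was higher. The adjusted p given with a bound is that of the fitted difference, signals below background included, and no p was computed for the bound. Members were named with all array values when called between the sorted groups, when among the 3 largest called differences each way against homogenates, or as heavy chains. Slc7a3 and Slc36a2 were given with all array values after these were seen, and the rest by range or name. The alternatives were normexp background correction, quantile and median scaling, the authors' table, 2 filters on dim probes, the mean over probes, only the 4 arrays compared, a variance trend, array weights per group, the replicate block, and each array left out. normexp used the median spot signal, since the files hold no mean spot signal. The number of arrays limits the precision. No spot was saturated. Same-numbered arrays did not deviate together (correlations 0.07, -0.01 and 0.04 over 13998 genes). The fit was tested on simulated data.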

Additional observations from a re-analysis of the deposited data

How the results depend on the processing

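Of the calls, 5 of 9 between the sorted groups, 3 of 11 between myofibroblasts and homogenates and 4 of 13 between fibroblasts and homogenates held under every alternative that could be run for them. Between the sorted groups, members higher numbered 3 to 6 and members lower 3 to 6 when each array was left out, against 5 and 4 with all arrays, and 7 were lower with the authors' table. Between myofibroblasts and homogenates, 2 to 8 were higher and 2 to 7 lower with each array left out, against 5 and 6. Higher there were 10 with median scaling, 8 with only the 4 arrays compared and 10 with array weights, and lower were 3 both with median scaling and when both groups had to be above background. Between fibroblasts and homogenates, 3 to 8 were higher and 2 to 6 lower with each array left out, against 8 and 5, and 3 were lower both with median scaling and when both groups had to be above background. Without a homogenate array the fit has 2 groups of 2 arrays and 1 lone array, which is assumed to vary like the others. Slc1a1 turned from lower to 0.037 between myofibroblasts and homogenates with normexp (adjusted p = 0.870). The replicate block, whose numbers do not pair the samples, left 5 higher and 4 lower between the sorted groups, 4 and 4 between myofibroblasts and homogenates, and 8 and 4 between fibroblasts and homogenates. Over all genes it called 2229, 4045 and 3222, against 2758, 4614 and 3392. Between the sorted groups all-gene calls numbered 3886 with the authors' table, 2746 with median scaling, 1264 with only the 4 arrays, 1142 with array weights, and 884 to 5604 with an array left out. Median scaling moved the median of all genes by 0.17, 0.45 and 0.28, the authors' table by -0.41, -0.50 and -0.09, and quantile normalization by 0.10 between myofibroblasts and homogenates. Of the called genes between the sorted groups 53.5% were higher, against 66.2% with median scaling and 25.3% with the authors' table. The causes were not tested. Genes near background have only bounds, and 2 arrays per group limit which differences, large ones included, could be called.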
